A study of Homo sapiens with 60 samples.

Results

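H1975 cells that had survived 21 days of osimertinib and had then been kept for 72 h without it (long washout, 3 libraries) were set against H1975 cells that had never received the drug (DMSO, 3 libraries). These 6 libraries were taken by their labels from the 60 RNA-Seq libraries of the study, which covers 4 EGFR-mutant non-small cell lung cancer lines (H1975, PC9, HCC827 and HCC2935) in 5 arms with 3 replicates each. DMSO cells were kept without drug for 21 days and received the solvent for the last 24 h. Acute cells were kept the same way and received 500 nM osimertinib for the last 24 h. Drug-tolerant persisters (DTPs) received 500 nM for all 21 days, short washout cells were DTPs that then spent 24 h without drug, and long washout cells in H1975 were DTPs that spent 72 h without it. All 5 arms are the same parental line, and the labels name no engineered allele. The washout arms hold only descendants of the cells that outlived the drug. The short and long washout labels of H1975 may have been exchanged. Short washout values are given for part of the results, and results without them need not hold to the same size in that arm.

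Osimertinib binds the EGFR kinase covalently and shuts down the receptor's signal to the RAS, RAF, MEK and ERK cascade and to PI3K and AKT. ERK output is usually read from genes that it induces within hours and that feed back on it, such as DUSP phosphatases, SPRY proteins and ETV factors. Persisters are cells that live through a targeted drug without a resistance mutation, mostly with little division, and in many models they regain sensitivity and growth once the drug is gone. Epithelial cells hold together through E-cadherin junctions, and loss of these with gain of contractile and matrix genes is known as epithelial to mesenchymal transition, a state often described in cells that tolerate EGFR inhibitors.

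Each of the 6 libraries held 41.3 to 47.5 M estimated counts, and the 10 genes with the most counts took 6.36% to 7.80% of a library. The long washout libraries had rank correlations of 0.967 to 0.968 with the mean of the H1975 DMSO libraries. With the DMSO mean of any other line these were at most 0.918. The DMSO libraries were also nearest to the H1975 mean, which includes them. The distance between libraries, the root mean square difference of log2 expression over 13123 genes, had a median of 0.850 between DMSO and long washout, against 0.244 within long washout and 0.344 within DMSO. DMSO replicate 2 stood apart, with a mean distance of 0.754 to the long washout libraries against 0.883 and 0.850 for the other two. Values are given below in CPM, the counts of a gene per 1 M counts of its library, normalised by TMM over all 60 libraries, always in the order of replicates 1, 2 and 3. Log2 fold changes are long washout minus DMSO with their standard error, and a gene was called at an adjusted p under 0.05 in edgeR's quasi-likelihood test with Benjamini-Hochberg adjustment.

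Markers of lung epithelial cells were all present, but 4 of 6 were lower after the washout (CDH1, EPCAM, KRT7 and KRT18), and their summed level was 2602 to 3028 CPM in long washout against 3778 to 4982 CPM in DMSO. KRT8 and KRT19, the other two, had log2 fold changes of -0.11 and -0.22 and were not called. Over all genes tested 26.8% were called higher and 28.2% lower, and nothing is read from marker counts near these shares. Markers of other cells ranged from low to moderate. Of T cell markers 1 of 3 passed the filter on low counts and was lower (PTPRC), of macrophage markers 1 of 2 tested was higher (CD14), with a summed 89.1 to 120.3 CPM against 81.8 to 125 CPM, mostly of CD68, and of 4 neuroendocrine markers 1 was tested and not called. Endothelial markers were higher in 2 of 3 (CDH5, 3.27 and VWF, 2.22), with a summed 10.1 to 15.3 CPM against 2.26 to 5.66 CPM. Without DMSO replicate 2, 1 was higher and 1 lower, and without DMSO replicate 1 or long washout replicate 1 or 2 only 1 of the 3 was called. Fibroblast markers were higher in 3 of 5 (COL1A2, 1.94, PDGFRB, 1.54, and LUM, 4.79), with 147 to 292 CPM against 65.0 to 161 CPM. Whether cells of another kind had a part in any result was not tested, and in bulk libraries fewer cells of a type and less RNA per cell cannot be told apart.

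A drug-free time of 72 h left H1975 far from the DMSO state. Of 14698 genes tested, 8087 (55.0%) were called, 3939 higher (26.8%) and 4148 lower (28.2%). Of these, 1557 were at least 2-fold higher and 1358 at least 2-fold lower. The 3 long washout values lay outside the range of the 3 DMSO values for 9281 genes (63.1%). The median log2 fold change of all genes tested was -0.0013, and the median of its absolute size was 0.458. Without DMSO replicate 2 the calls numbered 8966. The shares of 26.8% higher and 28.2% lower stand beside every list count of this comparison below. Nothing is read from a list count near them.

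**Figure D1:**
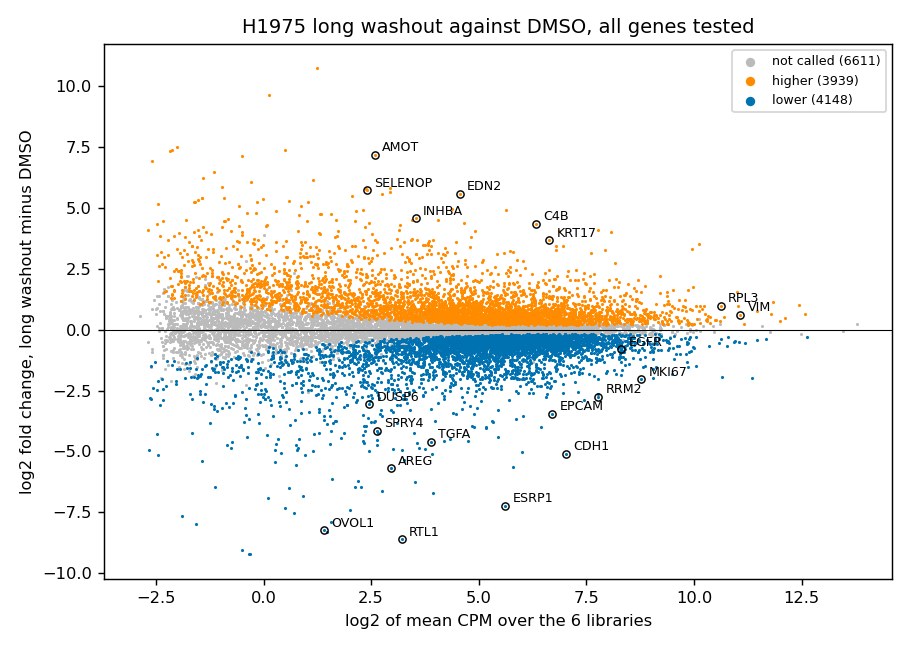
Log2 fold change of long washout against DMSO (vertical axis) for each of the 14698 genes tested, against the log2 of its mean CPM over the 6 libraries (horizontal axis). Orange points are the 3939 genes called higher, blue points the 4148 called lower and grey points those not called; circled genes are described in the text, with SPRY4 and CDH1 far below 0 and AMOT and INHBA far above it.

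The 12 highest fold changes belonged to genes with a mean of under 1 CPM in DMSO. AMOT, a scaffold of the Hippo pathway (chrX:112774503-112840815 in GENCODE 29, hg38), had 0.0984, 0.111 and 0.0218 CPM in DMSO and 9.34, 18.1 and 8.35 CPM in long washout (log2 fold change 7.17 ± 0.52, adjusted p = 2.79e-05). Its groups could not overlap, as the rule required this. KCNK15, a potassium channel, rose by 5.78, SELENOP, the plasma selenium carrier, by 5.70, EDN2, endothelin 2, by 5.57, and COL4A4 and COL21A1, collagen chains, by 5.55 and 7.34 on the log2 scale. PLSCR4 (6.14), MGAT4C (5.82), FAM189A2 (5.66) and GSTA1 (5.47) were among the 12 highest as well. OR2T8, annotated as an olfactory receptor, and H3C14, a histone H3 gene, had no counts in any DMSO library and were at least 74.0-fold and 34.4-fold higher, against a floor of 3 counts per DMSO library. H3C14 went up while H3C15 was among the 12 lowest (-6.91), and since the copies are nearly identical their reads may have been split unevenly between them. Without DMSO replicate 1 the value for PLSCR4 was 5.53, and without DMSO replicate 2 those for MGAT4C and GSTA1 were 6.42 and 6.22. GSTA1 has a near-identical paralog too, and SELENOP overlaps CCDC152.

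Several of the 12 lowest genes by the same rule are known from epithelia. RTL1, an imprinted retrotransposon-derived gene on chromosome 14, fell by 8.60 on the log2 scale. The log2 fold change was -8.29 for RBBP8NL, -7.40 for the kinase SYK, -7.33 for the membrane protease TMPRSS11E, -6.69 for the flippase subunit TMEM30B and -6.61 for the glycosyltransferase B3GALT5. ARHGEF35 (-7.52) and CTAGE4 (-6.84) lie in duplicated sequence, and RTL1 is overlapped on the other strand by microRNA genes, so their counts are less certain. The other four were OVOL1, OVOL2, ESRP1 and H3C15. OVOL1, ARHGEF35 and TMPRSS11E had counts in long washout replicate 3 only and H3C15 in replicate 2 only, so the size of their fall rests on 1 library. Without long washout replicate 3 the value for RTL1 was -9.52. All 24 of these genes had no overlap between the groups, which the rule that named them required.

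Epithelial genes had the lowest median of the 50 lists. Of 18 genes of junctions and epithelial identity, all tested, 16 were called lower and 0 higher, with a median log2 fold change of -2.82. CDH1, which encodes E-cadherin (chr16:68737225-68835548), had 335, 123 and 303 CPM in DMSO and 7.37, 5.78 and 9.80 CPM in long washout (log2 fold change -5.10 ± 0.42, adjusted p = 4.58e-05). DMSO replicate 2 was the lowest of its group and still lay far above the highest long washout library. EPCAM, an epithelial adhesion molecule, had 244, 109 and 220.4 CPM and 17.1, 18.4 and 18.9 CPM (log2 fold change -3.45 ± 0.29, adjusted p = 5.08e-05). ESRP1, a splicing factor of epithelial cells, had 144, 35.3 and 113 CPM and 0.962, 0.673 and 0.352 CPM (log2 fold change -7.24 ± 0.64, adjusted p = 6.45e-05). For both genes the groups were far apart, again with DMSO replicate 2 as the lowest DMSO library.

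OVOL1 and OVOL2, repressors of the mesenchymal programme, fell by 8.23 and 7.88 on the log2 scale. Other members, picked after their values were seen, were GRHL2, an epithelial pioneer factor (log2 fold change -4.48 ± 0.82, adjusted p = 0.00225), and the tight junction gene CLDN7 (log2 fold change -4.42 ± 0.37, adjusted p = 5.06e-05). TJP3 (0.57) and CDH3 (-0.23), which encodes P-cadherin, were not called. Without DMSO replicate 2 the count was again 16 of 18, with a median of -3.13. After acute osimertinib 3 of 18 epithelial genes were higher and 0 lower against the same DMSO libraries (21.2% and 23.7% of all genes), and CDH1 had 127, 331 and 405 CPM. CDH1 stood at 5.28, 7.93 and 8.91 CPM in DTPs and at 4.22, 3.79 and 4.68 CPM after short washout, so the low level was already present at the end of the drug.

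**Figure D2:**
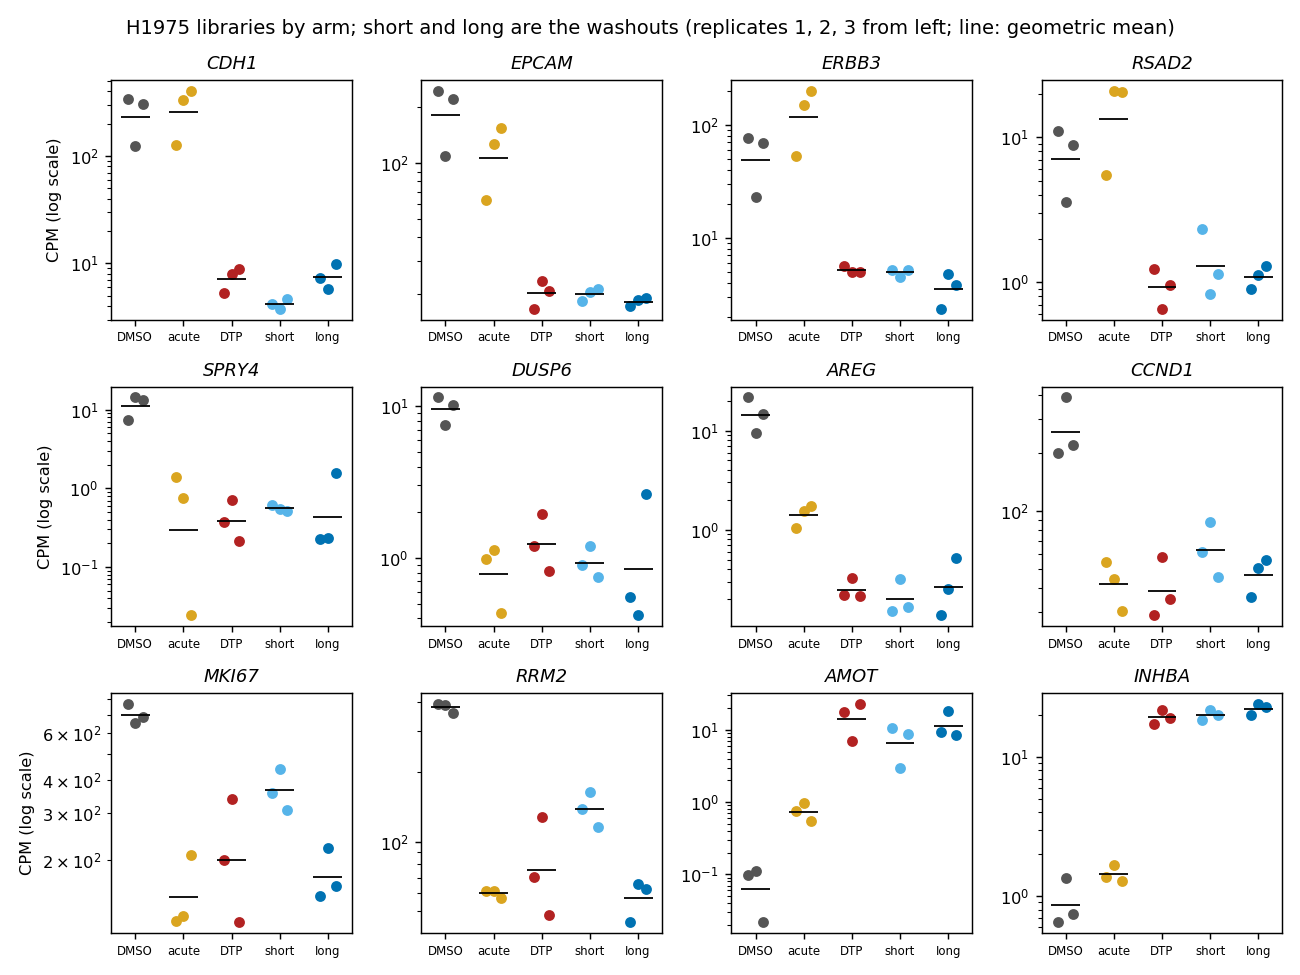
CPM on a log axis of 12 genes in each of the 15 H1975 libraries by arm, replicates 1 to 3 from left to right, with a line at the geometric mean. CDH1, EPCAM and ERBB3 are far below every DMSO and acute osimertinib library in DTPs and both washouts, while MKI67 and RRM2 are lower in long than in short washout.

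Mesenchymal genes moved the other way. Of 17 genes tested, 12 were higher and 1 was lower (TGFBI, -0.48), with a median of 0.67. ACTA2, smooth muscle actin (log2 fold change 2.49 ± 0.26, adjusted p = 1.41e-04), and S100A4, a calcium-binding protein of motile cells (log2 fold change 2.37 ± 0.25, adjusted p = 1.41e-04), changed most. After short washout the log2 fold change against DMSO was 3.04 for ACTA2 but only 0.89 for S100A4. VIM, vimentin, had 1232, 2426 and 1426 CPM in DMSO and 2544, 2618 and 2747 CPM in long washout (log2 fold change 0.59 ± 0.22, adjusted p = 0.0482). DMSO replicate 2 lay close to the long washout libraries for this gene, which was already highly expressed, and its call was lost in several refits. Of the factors known to repress CDH1, picked here after their values were seen, ZEB2 and SNAI2 were called higher (log2 fold change 1.64 ± 0.14, adjusted p = 5.39e-05, and log2 fold change 0.62 ± 0.16, adjusted p = 0.0102). ZEB1 (log2 fold change 0.66 ± 0.27, adjusted p = 0.0685) and SNAI1 (log2 fold change -0.43 ± 0.18, adjusted p = 0.0771) were not called. CDH2, TWIST1 and TWIST2 had too few counts to be tested.

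Collagen genes were mostly higher. Of 25 collagen genes tested, 14 were higher and 4 lower (median 0.79), led by COL4A4 and COL4A3 (3.61), chains of a specialised basement membrane network. Of 9 laminin genes 2 were higher and 4 lower, with LAMB2 at 1.57. Of 16 integrin genes 5 were higher and 7 lower. Over all genes 26.8% were higher and 28.2% lower, and nothing is read from the laminin and integrin counts beside these shares. ITGB6, the epithelial partner that activates latent TGF-beta, fell by 5.37 and ITGB2 by 3.31 on the log2 scale. In the TGF-beta and BMP list, 11 of 24 were higher and 6 lower. INHBA, the activin A subunit, had 0.649, 1.35 and 0.743 CPM in DMSO and 20.1, 23.9 and 22.9 CPM in long washout (log2 fold change 4.57 ± 0.26, adjusted p = 1.37e-05), and INHBB rose by 3.67. No long washout library came near the DMSO range for INHBA.

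Of 23 targets of YAP and TEAD, which report on cell contact and stiffness, 14 were higher and 3 lower (median 1.00). ANKRD1 had 5.10, 41.8 and 13.6 CPM in DMSO and 162, 175 and 264 CPM in long washout (log2 fold change 3.28 ± 0.65, adjusted p = 0.0033). The DMSO libraries were spread widely, with replicate 2 highest, but all stayed under the long washout values. Without DMSO replicate 2 the log2 fold change of ANKRD1 was 4.37. NT5E, an ectonucleotidase on the same list, fell by 4.01 on the log2 scale. AXL, a receptor kinase on the list that is often raised in EGFR inhibitor tolerance, was not called (log2 fold change -0.41 ± 0.24, adjusted p = 0.187).

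Most genes of ERK output and feedback were low although the drug had been gone for 72 h. Of 19 genes of ERK output and feedback, 12 were lower and 1 was higher (SPRY2, 0.66, picked after its value was seen), with a median of -1.35. ETV4, an ERK-induced factor, had 32.5, 28.2 and 28.0 CPM in DMSO and 2.15, 2.25 and 2.32 CPM in long washout (log2 fold change -3.77 ± 0.12, adjusted p = 5.86e-06). SPRY4, a feedback inhibitor, had 7.38, 14.3 and 13.3 CPM and 0.229, 0.232 and 1.57 CPM (log2 fold change -4.15 ± 0.67, adjusted p = 0.00117). DUSP6, the ERK phosphatase, had 11.4, 7.56 and 10.2 CPM and 0.549, 0.418 and 2.65 CPM (log2 fold change -3.06 ± 0.61, adjusted p = 0.00343). None of these 9 long washout values reached the DMSO range, and long washout replicate 3 was the highest of its group for all of ETV4, SPRY4 and DUSP6, by several-fold for SPRY4 and DUSP6. Without that library the log2 fold changes of SPRY4 and DUSP6 were -5.68 and -4.36.

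FOSL1, an AP-1 factor downstream of ERK, had 188, 260.3 and 192 CPM in DMSO and 23.5, 26.3 and 58.4 CPM in long washout (log2 fold change -2.61 ± 0.34, adjusted p = 3.72e-04). CCND1, cyclin D1, had 198, 386 and 221 CPM and 36.0, 50.7 and 55.8 CPM (log2 fold change -2.54 ± 0.27, adjusted p = 1.45e-04). The groups were separate for both genes, and long washout replicate 3 was again the highest of its group. Of 12 AP-1 factors 5 were higher and 3 lower, with MAF at 2.56. For the same ERK list, 15 of 19 were lower in acute osimertinib, 15 in DTPs and 15 in short washout against the same DMSO libraries, with 0, 2 and 2 higher. Over all genes 23.7%, 23.4% and 21.8% were lower in these arms and 21.2%, 22.4% and 21.0% higher.

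Receptors and ligands of the family changed unequally. EGFR itself (chr7:55019021-55211628) had 382, 406 and 416 CPM in DMSO and 224, 241 and 242 CPM in long washout (log2 fold change -0.81 ± 0.07, adjusted p = 4.79e-05). ERBB3, a partner of EGFR and ERBB2 with little kinase activity of its own, had 75.7, 22.8 and 69.3 CPM and 2.36, 4.78 and 3.82 CPM (log2 fold change -3.99 ± 0.48, adjusted p = 2.77e-04). LRIG1, a negative regulator that promotes receptor turnover, had 24.7, 39.3 and 27.4 CPM and 154, 149 and 167 CPM (log2 fold change 2.32 ± 0.16, adjusted p = 2.59e-05). EGFR and ERBB3 were thus lower and LRIG1 higher in every long washout library than in every DMSO library. Over the list of receptors and their inhibitors, 4 of 11 tested were higher and 3 lower (median 0.24).

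Of 9 EGFR family ligands tested, 5 were lower and 2 higher (median -1.54). AREG, amphiregulin, had 21.6, 9.49 and 14.7 CPM in DMSO and 0.137, 0.255 and 0.516 CPM in long washout (log2 fold change -5.70 ± 0.48, adjusted p = 5.02e-05). TGFA, transforming growth factor alpha, had 34.1, 22.1 and 29.3 CPM and 1.21, 1.42 and 1.01 CPM (log2 fold change -4.60 ± 0.22, adjusted p = 8.92e-06). Both were far lower in all 3 long washout libraries than in any DMSO library. The 2 that rose, named after their values were seen, were HBEGF (log2 fold change 2.34 ± 0.41, adjusted p = 0.00177) and EGF (log2 fold change 1.89 ± 0.32, adjusted p = 0.00139). Among 21 other receptor kinases tested, 5 were higher and 4 lower. DDR2, a collagen receptor, rose by 3.42 and ROS1 by 2.43 on the log2 scale, and MET, the hepatocyte growth factor receptor, had 553, 472 and 578 CPM against 303, 266 and 306 CPM (log2 fold change -0.92 ± 0.10, adjusted p = 1.52e-04), with no overlap.

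Genes of cell division were low. All 25 mitosis genes and all 28 DNA replication genes were called lower, with medians of -1.99 and -1.56. MKI67, the proliferation antigen Ki-67, had 765, 649 and 683 CPM in DMSO and 147, 221 and 159.9 CPM in long washout (log2 fold change -2.04 ± 0.16, adjusted p = 3.72e-05). CDK1, the mitotic kinase, had 165, 124 and 134 CPM and 31.7, 46.8 and 31.7 CPM (log2 fold change -1.99 ± 0.18, adjusted p = 7.37e-05). RRM2, a ribonucleotide reductase subunit, had 392, 389 and 359 CPM and 44.9, 65.6 and 62.5 CPM (log2 fold change -2.77 ± 0.14, adjusted p = 9.55e-06). Every long washout library was below every DMSO library for these genes. TOP2A, topoisomerase II alpha, fell by 1.61, NEK2 by 2.46, BIRC5, survivin, by 2.45, and CDC45, a helicase component, by 2.34 on the log2 scale.

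Many promoters of mitotic genes carry a CHR element, the letters TTTGAA, through which the DREAM complex and its MYB partner act in the cell cycle. Promoter sequence was taken from RefSeq (GRCh38.p14, the 250 bases before the start), which held 19 of the 25 mitosis genes, and 10 of these (52.6%) had TTTGAA on either strand, against 16.1% of all 27305 genes in the table. For DNA replication genes, the E2F letters TTTNGCGC were in 8 of 24 (33.3%) against 1.84% of all genes. CDK1 and TOP2A are shown as mitosis genes that were lower in all 3 libraries, with the CHR letters of either strand in capitals, at chr10:60778081-60778330 on the plus strand and chr17:40417897-40418146 on the minus strand.
CDK1: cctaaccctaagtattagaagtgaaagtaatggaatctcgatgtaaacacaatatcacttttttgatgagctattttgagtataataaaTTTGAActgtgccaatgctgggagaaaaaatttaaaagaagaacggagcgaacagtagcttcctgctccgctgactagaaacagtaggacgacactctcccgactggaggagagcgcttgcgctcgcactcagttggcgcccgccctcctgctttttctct
TOP2A: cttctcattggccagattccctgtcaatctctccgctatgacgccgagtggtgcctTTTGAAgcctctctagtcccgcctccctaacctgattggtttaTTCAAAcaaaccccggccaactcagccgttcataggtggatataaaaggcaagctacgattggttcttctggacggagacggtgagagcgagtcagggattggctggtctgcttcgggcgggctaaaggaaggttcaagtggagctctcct
A match is a description of the letters only, and use of these sites was not measured.

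The cell cycle inhibitors did not move together. Of 15 G1 cyclins, kinases and inhibitors, 5 were higher and 7 lower. CCND2, cyclin D2, rose by 5.27 while CCND1 fell by 2.54 on the log2 scale. CDKN1B, which encodes p27, was higher (log2 fold change 0.62 ± 0.08, adjusted p = 4.57e-04), and CDKN1A, which encodes p21, was not called (log2 fold change -0.24 ± 0.22, adjusted p = 0.385). EZH2, the Polycomb methyltransferase, fell by 1.51 and KDM6B, which removes the mark it places, rose by 1.75, among 29 histone and DNA modifiers of which 11 were higher and 9 lower. Of 10 replication-dependent histone genes 6 were higher and 1 lower, led by H2AW (1.94) and H4C8 (1.85).

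Interferon-stimulated genes were split. Of 40 genes, all tested, 21 were lower and 7 higher, with a median of -0.76. Without DMSO replicate 2 the counts were 26 lower and 6 higher. RSAD2, viperin, had 11.1, 3.59 and 8.82 CPM in DMSO and 0.893, 1.11 and 1.29 CPM in long washout (log2 fold change -2.88 ± 0.42, adjusted p = 7.02e-04). CMPK2, a mitochondrial kinase that overlaps it head to head on the opposite strand, changed in the same direction (log2 fold change -4.47 ± 0.69, adjusted p = 9.08e-04), and as the strand setting of the counting is not stated, their reads may be shared. IFIT3, a sensor-associated antiviral protein picked after its values were seen, had 118, 42.8 and 92.4 CPM and 27.0, 24.3 and 24.9 CPM (log2 fold change -1.78 ± 0.32, adjusted p = 0.00204). DMSO replicate 2 was the lowest DMSO library for both RSAD2 and IFIT3, and the groups did not overlap.

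The higher members included BST2, tetherin, also picked after its values were seen, with 98.8, 138 and 101 CPM in DMSO and 269.7, 261 and 280.1 CPM in long washout (log2 fold change 1.22 ± 0.13, adjusted p = 1.24e-04). The others that rose were IFITM1, IFITM2, IFITM3, MX2, XAF1 and STAT2, with log2 fold changes of 0.60 to 1.17. Interferon-stimulated genes are usually read through the ISRE, here searched as GAAA, any 2 bases and GAAA. RefSeq promoters held 30 of the 40 genes, and 21 of these had the letters on either strand, against 3.71% of all genes. They were in 13 of 16 promoters of genes called lower and in 3 of 5 of genes called higher. IFIT3, at chr10:89327747-89327996 on the plus strand, and BST2, at chr19:17405631-17405880 on the minus strand, are shown because they moved in opposite directions while both carry the letters, which are in capitals.
IFIT3: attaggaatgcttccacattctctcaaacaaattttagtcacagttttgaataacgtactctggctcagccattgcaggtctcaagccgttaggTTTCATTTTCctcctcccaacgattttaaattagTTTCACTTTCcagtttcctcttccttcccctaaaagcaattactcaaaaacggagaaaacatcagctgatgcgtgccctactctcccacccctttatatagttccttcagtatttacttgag
BST2: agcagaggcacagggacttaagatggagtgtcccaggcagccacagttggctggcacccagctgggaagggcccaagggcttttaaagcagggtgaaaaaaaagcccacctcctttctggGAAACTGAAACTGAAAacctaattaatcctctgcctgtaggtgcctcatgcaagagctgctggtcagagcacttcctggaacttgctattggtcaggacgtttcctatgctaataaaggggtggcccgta
Each window held 2 matches, and those of BST2 overlap.

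Most antigen presentation genes were higher. Of 15 genes of MHC class I presentation 11 were higher and 1 was lower (PSMB10, -0.41), with a median of 0.61. HLA-B had 204, 228 and 169.8 CPM in DMSO and 519, 504 and 568 CPM in long washout (log2 fold change 1.36 ± 0.11, adjusted p = 4.09e-05), and HLA-C rose by 1.16. HLA reads can be shared between the class I genes. Of 9 class II genes tested 6 were higher, among them HLA-DPB1 (2.12), and 2 were lower, the protease CTSS (-2.39) and the class II transactivator CIITA (-0.71). After short washout 4 of 9 class II genes were higher and 2 lower, where 21.0% of all genes were higher and 21.8% lower. Of 14 NF-kB genes 6 were higher and 1 lower, with ICAM1 at 2.02 and TNFAIP2 at -1.20. Of 20 chemokines and interleukins tested 7 were higher and 2 lower, with CCL2 at 3.65 and IL11 at -2.84.

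Genes of metabolism fell in part, beside 28.2% of all genes lower and 26.8% higher. Of 20 glycolysis genes 15 were lower and 1 was higher (median -0.57), led by PFKFB4 (-1.85) and ENO2 (-1.05). Of 30 respiratory chain genes tested 21 were lower and 3 higher (median -0.35), led by ATP5F1B, the catalytic subunit of ATP synthase (log2 fold change -1.31 ± 0.14, adjusted p = 1.36e-04). Of 22 cholesterol synthesis genes tested 14 were lower and 3 higher (median -0.55), led by INSIG1 (-1.67) and EBP (-1.41). After short washout 6 cholesterol synthesis genes were lower and 4 higher. Of 30 respiratory chain genes 14 were lower and 3 higher there. In that arm 21.8% of all genes were lower and 21.0% higher. Of 12 fatty acid synthesis genes 2 were higher and 4 lower, and nothing is read from these counts. Of 24 NRF2 targets 5 were higher and 11 lower, with HMOX1, heme oxygenase, at -2.22 and AKR1C3 at 1.95.

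Ribosomal protein genes and the genes that build ribosomes moved apart. Of 35 cytosolic ribosomal protein genes 31 were higher and 0 lower, by small amounts (median 0.36). RPL3 had 1058, 1002 and 1043 CPM in DMSO and 2083, 2107 and 2151 CPM in long washout (log2 fold change 0.98 ± 0.06, adjusted p = 1.71e-05), and RPS18 rose by 0.96. The groups were apart for RPL3, though 13 annotated pseudogenes carry its name and could share its reads. Of 25 ribosome biogenesis genes 16 were lower and 0 higher (median -0.48), led by RRS1 (-1.73) and LYAR (-1.21). After short washout 10 were lower, where 21.8% of all genes were lower. After acute osimertinib 1 of 35 ribosomal protein genes was higher and 24 of 25 biogenesis genes were lower, against the same DMSO libraries. There 21.2% of all genes were higher and 23.7% lower. Of 18 tRNA synthetase genes 4 were higher and 8 lower.

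Most members of the lysosome and FOXO lists were higher. Of 31 lysosome and autophagy genes 21 were higher and 7 lower (median 0.52), led by GABARAPL1, an autophagosome protein (log2 fold change 2.62 ± 0.12, adjusted p = 8.88e-06), and PSAP, prosaposin (log2 fold change 1.53 ± 0.07, adjusted p = 8.54e-06). Of 16 FOXO factors and targets 11 were higher and 2 lower (median 1.30). PIK3IP1, an inhibitor of PI3K, rose by 3.33 on the log2 scale, and ERBB3, which is also on this list, is the largest fall. Of 25 ATF4 targets tested 12 were higher and 1 was lower, with ATF3 at 2.24 and STC2 at 1.96. Of 15 p53 targets 5 were higher and 2 lower, with TP53INP1 at 3.63. Of 15 BCL2 family genes tested 6 were higher and 3 lower, with the death promoters HRK at 1.86 and BIK at -2.75.

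**Figure D3:**
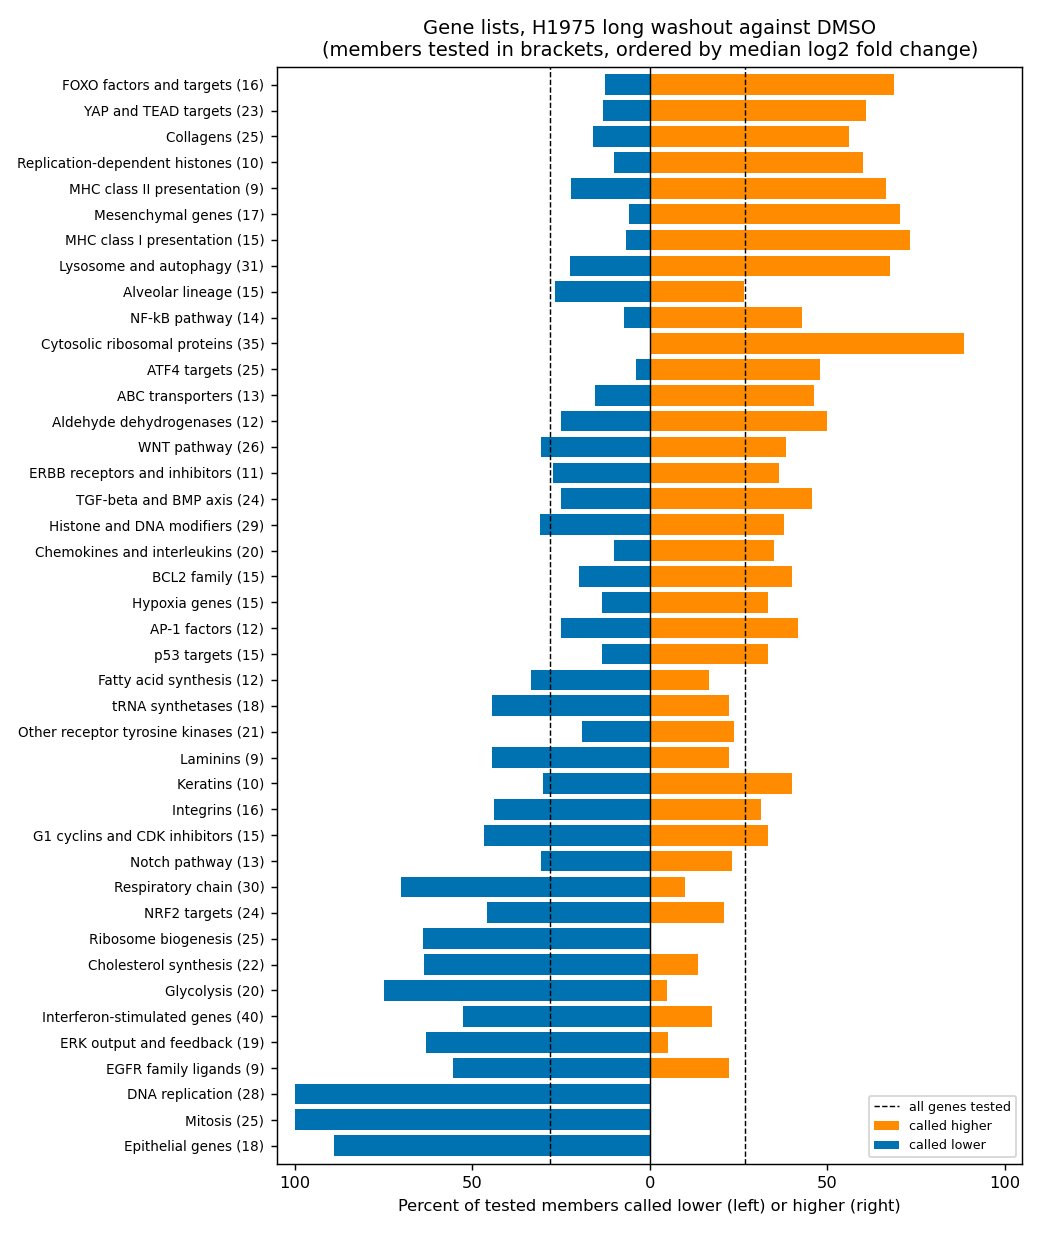
Share of the tested members of gene lists with at least 9 members tested (cell type markers left out) called lower (blue, to the left) and higher (orange, to the right) in long washout against DMSO, in percent, ordered by median log2 fold change. Dashed lines mark all genes tested (28.2% lower, 26.8% higher); epithelial, mitosis and DNA replication genes lie at the lower end and FOXO and YAP and TEAD genes at the upper end.

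The washout arm was next set against the arms it came from. Long washout and DTPs were about as close as replicates of one arm, at a median distance of 0.274 against 0.311 within DTPs. Of 14702 genes tested between them, 2 were called (0.0136%), both lower. With an unadjusted p under 0.05 there were 660. So few calls do not show that the 2 arms are equal, as the DTP libraries were spread widely. The summed mitosis genes, for one, had 1031 to 2660 CPM in DTPs. All 25 of these genes were lower in long washout than in DTPs, by log2 fold changes of -0.46 to -0.11, and none was called. DESeq2 called 68 and limma on log2 TPM 0. The count was 0 or 1 when any single library was left out.

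The 2 genes, named because they were the only calls and so picked after their values were seen, went back towards DMSO. NGFR, the low-affinity neurotrophin receptor, had 0.256, 0.244 and 0.371 CPM in DMSO, 17.2, 9.77 and 10.3 CPM in DTPs, 9.28, 6.17 and 5.03 CPM after short washout and 2.22, 1.72 and 1.22 CPM after long washout. Long washout was below every DTP and short washout library (log2 fold change against DTPs -2.85 ± 0.30, adjusted p = 0.0448) and still above every DMSO library (log2 fold change 2.51 ± 0.37, adjusted p = 7.21e-04). SLC44A2, a choline transporter, had 183, 187 and 173 CPM in DMSO, 725, 689 and 653 CPM in DTPs, 573, 549.9 and 507 CPM after short washout and 286, 259 and 189 CPM after long washout (against DTPs -1.50 ± 0.15, adjusted p = 0.0448). Its long washout libraries also lay below those of DTPs and of short washout, and just above DMSO. Against DMSO its log2 fold change was 0.39 ± 0.14 (adjusted p = 0.0473), a call that most refits lost. In both genes the values descended from DTPs over short washout and long washout to DMSO, while DTPs and short washout were not called different.

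The 2 washout arms differed in more genes. Of 14672 tested, 1429 were called (9.74%), 595 higher (4.06%) and 834 lower (5.68%) in long washout. On the log2 TPM scale limma called 353 higher and 765 lower. The count depended on single libraries, with 440 without long washout replicate 1 and 2076 without short washout replicate 3. All 25 mitosis genes and 26 of 28 DNA replication genes were lower in long washout than in short washout, with medians of -1.04 and -0.85. MKI67 had 357, 439.8 and 309 CPM after short washout and 201, 339 and 117 CPM in DTPs, against 147, 221 and 159.9 CPM after long washout. CDK1 had 77.3, 84.9 and 77.8 CPM after short washout. The short washout libraries thus stood between DMSO and long washout for both genes, while DTP values reached from below the long washout range to within the short washout range for MKI67. These genes run against the order of NGFR and SLC44A2 if labels and times are taken as given. NGFR and SLC44A2 were picked as the only calls between long washout and DTPs, both lower. Their low values in long washout were thus part of the pick, and nothing about the labels is read from their order. Of 25 ATF4 targets, 13 were lower in long than in short washout and 0 higher.

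Against the same 3 DMSO libraries, DTPs had 6724 calls among 14699 genes (45.7%), short washout 6288 among 14661 (42.9%) and acute osimertinib 6622 among 14738 (44.9%). Epithelial genes were lower in 15 of 18 in DTPs and 15 of 18 in short washout. Interferon-stimulated genes were lower in 21 and higher in 6 of 40 in DTPs, lower in 21 and higher in 4 after short washout, and higher in 19 and lower in 1 after acute osimertinib. RSAD2 had 5.45, 20.9 and 20.6 CPM in the acute libraries, which overlapped DMSO. Ribosomal protein genes were higher in 17 of 35 in DTPs and in 12 of 35 after short washout, with 2 lower there. As all these comparisons share the DMSO libraries, they are given side by side and no overlap between them was tested.

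**Figure D4:**
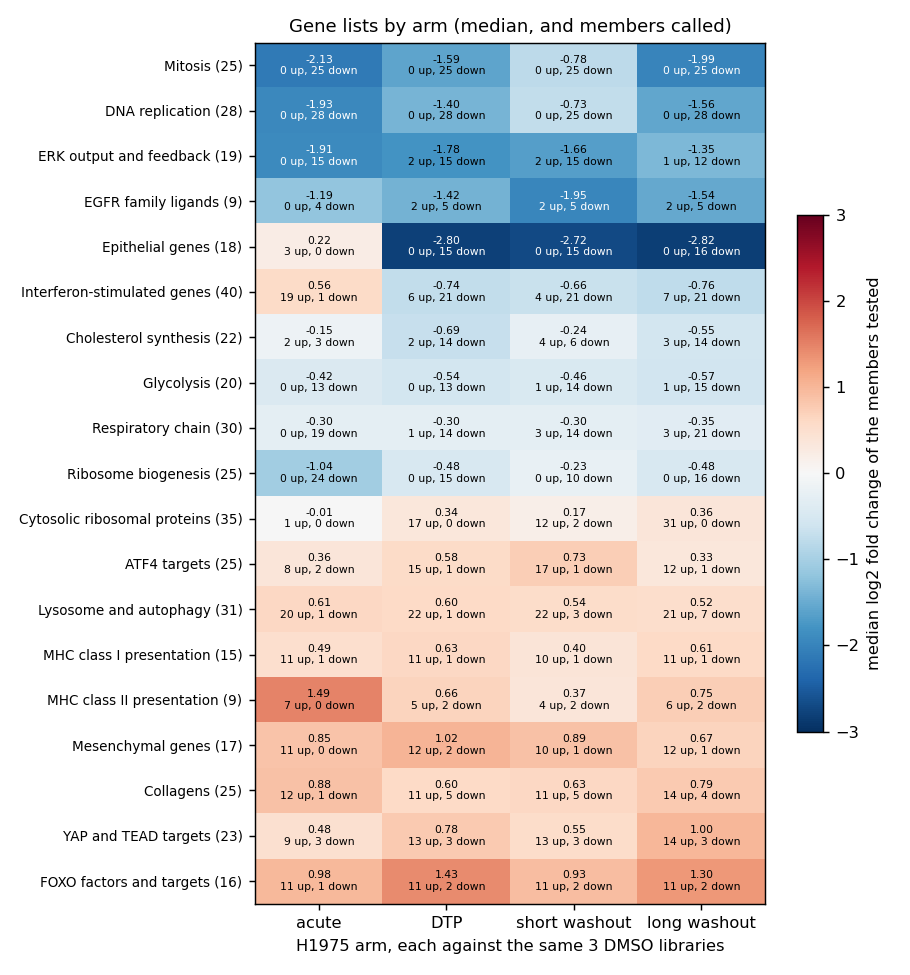
Median log2 fold change of the tested members of 19 gene lists (colour, and upper number in each cell) in 4 H1975 arms, each against the same 3 DMSO libraries, with the members called higher and lower under it. The epithelial row is near 0 after acute osimertinib (0.22) and strongly negative in DTPs (-2.80), short washout (-2.72) and long washout (-2.82).

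Long washout minus DMSO was last compared with the same difference in PC9, HCC827 and HCC2935, over 24 libraries, by an interaction contrast against the mean of the 3 lines. The washout lasted 72 h in H1975, 96 h in HCC827, 7 days in PC9 and 10 days in HCC2935, so line and time cannot be told apart. Of 16017 genes tested, 4328 differed (27.0%), 1629 more positive in H1975 (10.2%) and 2699 more negative (16.9%). The median interaction of all genes was -0.06, and on limma's log2 TPM scale it was -0.17, with 1118 genes more positive and 3346 more negative. The split was more even with RLE size factors (1992 and 2402, median -0.0093) and by DESeq2 (2276 and 2683, median -0.0065), and less even by library size alone (1351 and 3067, median -0.12). The list counts below kept their direction under every scaling tried.

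All 25 mitosis genes and 24 of 28 DNA replication genes were more negative in H1975 than in the mean of the other lines. HCC827, the line nearest in washout time, also had all 25 mitosis genes and 25 of 28 DNA replication genes lower against its own DMSO (19.9% of all 13842 genes lower, 19.7% higher and 39.7% called there). The median of the mitosis genes was -1.99 in H1975, -1.47 in HCC827, -0.44 in PC9 and -0.06 in HCC2935, and that of the DNA replication genes -1.56, -1.07, -0.28 and -0.66. H1975 was not tested against HCC827 alone. With the short washout libraries of H1975 in place of the long, the medians against DMSO were -0.78 and -0.73. Both are less negative than in HCC827, so the size of these differences between lines depends on the washout labels, which may have been exchanged. MKI67 differed by -1.17 (adjusted p = 2.38e-04). Epithelial genes were more negative than in the mean of the other lines in 13 of 18. In HCC827 itself 15 of 18 were lower and 0 higher, with a median of -1.43 against -2.82 in H1975, 0.19 in PC9 and -0.42 in HCC2935. CDH1 had a log2 fold change of 0.99 in PC9, -1.89 in HCC827 and 0.09 in HCC2935, against -5.10 in H1975 (difference -4.83 ± 0.32, adjusted p = 1.83e-09). H1975 had the lowest value of the 4 lines, and the test set it against the mean of the others.

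Interferon-stimulated genes were more negative in H1975 in 32 of 40 and more positive in 0, with medians of -0.76 in H1975, 1.22 in HCC827, 1.92 in PC9 and 0.42 in HCC2935. RSAD2 rose by 5.85 in HCC827 and had a log2 fold change of 0.63 in HCC2935, against -2.88 in H1975 (difference -7.14 ± 0.89, adjusted p = 4.74e-06). Its counts did not pass the filter in PC9 alone, but the PC9 libraries still enter the difference, so its size is less certain. Ribosomal protein genes were more positive in 33 of 35 and more negative in 0. RPL3 had log2 fold changes of -0.29, 0.17 and -0.52 in PC9, HCC827 and HCC2935 against 0.98 in H1975 (difference 1.20 ± 0.10, adjusted p = 1.45e-08).

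Mesenchymal genes were not stronger in H1975, with 3 of 20 tested more positive and 7 more negative. VIM rose by 2.71 in HCC827 and 2.75 in HCC2935, and in PC9 its log2 fold change was -0.66 (difference for H1975 -1.0 ± 0.32, adjusted p = 0.0248). AXL, with 3.28, 1.65 and -0.45 in the same order, differed by -1.90 (adjusted p = 5.69e-05). Of ERK output genes 3 of 19 were more positive and 7 more negative. SPRY4 had log2 fold changes of -2.41 in PC9, -0.68 in HCC827, where it was not called, and -1.35 in HCC2935, against -4.15 in H1975 (difference -2.67 ± 0.67, adjusted p = 0.00464). AMOT rose by 7.17 in H1975 against 1.36, 1.65 and -1.09 in PC9, HCC827 and HCC2935.

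**Figure D5:**
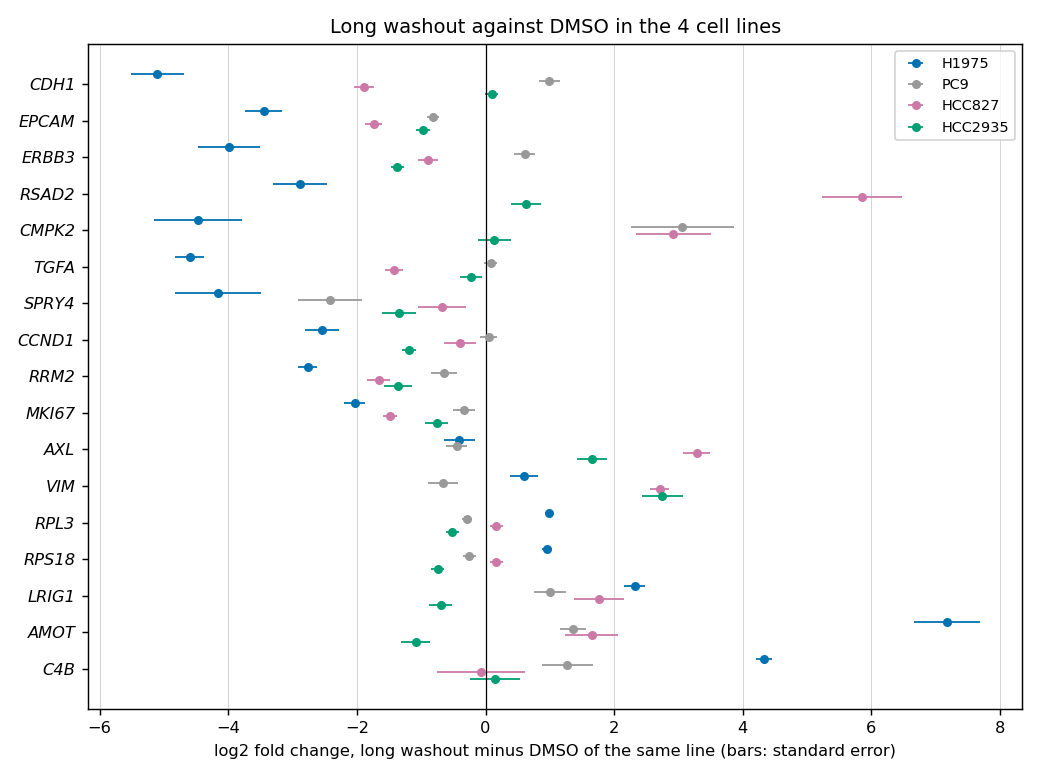
Log2 fold change of long washout against DMSO of the same line, with its standard error, for 17 genes (rows) in H1975, PC9, HCC827 and HCC2935 (colours); RSAD2 was not tested in PC9. H1975 lies furthest to the left for CDH1 (-5.10), and to the right of the other lines for AMOT (7.17).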

How the data were processed

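RNA-Seq was done on TruSeq mRNA libraries of 60 cell line samples, and 6 H1975 libraries (3 DMSO, 3 long washout) are described here, with the other 9 H1975 libraries and the DMSO and long washout libraries of 3 further lines as comparators. Replicates are labelled as biological triplicates. The authors deposited estimated counts for 19712 gene symbols, not normalised between libraries, and log2 TPM, to which 0.01 had been added before the log. The submitters' processing notes name HISAT2 2.1.0, Salmon 0.8.2 and hg38, and the annotation and strand setting are not given in the sources used here.

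Estimated counts were rounded, and the libraries of each comparison were fitted alone in edgeR 4.0.16 (R 4.3.3) with TMM normalisation, the filterByExpr filter, the quasi-likelihood F-test and Benjamini-Hochberg adjustment over all genes tested, with calls at an adjusted p under 0.05. Standard errors are the absolute log2 fold change divided by the square root of F. The fits were checked on simulated data. Named genes were the 12 highest and 12 lowest genes called in long washout against DMSO with at least 1 CPM and no overlap, the 2 largest called members of each of 50 lists, 13 chosen genes, and the 5 highest and 5 lowest genes of the interaction that were called in H1975. Genes outside this rule are said to be so, or account for the members behind a small count. The members and the lists were chosen with earlier results of these data known. Gene symbols whose hyphens had become dots were given back their hyphens (266 genes).

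Alternatives were limma 3.58.1 on log2 TPM, DESeq2 1.42.0, scaling by RLE or by library size alone, keeping all genes, a minimum of 10 counts per library, a replicate block, a threshold of 0.01, fits of 15 or 60 libraries, the short washout libraries in place of the long, and each library left out in turn. A comparison of the lines from DTPs instead of DMSO was added after seeing the data. Genes were located in GENCODE 29, and promoters came from RefSeq (GRCh38.p14), matched by symbol. Depth of 41.3 to 47.5 M counts per library limits the values of genes with few counts, and the spread between replicates was 15.3 to 85.4 times counting error for genes with at least 20 counts. Python 3.11.15 with pandas 2.3.3, numpy 2.4.6 and matplotlib 3.10.9 summarised and plotted the results.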

Additional observations from a re-analysis of the deposited data

Results flagged for a closer look

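The results below stand out because long washout minus DMSO differed between H1975 and the mean of PC9, HCC827 and HCC2935 in a test of that difference (the interaction contrast in edgeR's quasi-likelihood test, adjusted p under 0.05). The washout lasted 72 h in H1975 and 96 h or longer in the other lines, so line and time cannot be told apart. In all, 4328 of 16017 genes differed. Groups of 3 libraries were not searched for single libraries far from the others.

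Genes whose log2 fold change was more positive in H1975 were AMOT (difference 6.51), MGAT4C (4.91), PLSCR4 (4.57), FAM189A2 (3.94), C4B, a complement component (3.88), and CDKN1B (0.41). C4B shares nearly all of its sequence with C4A, and its counts are uncertain for that reason.

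Genes whose log2 fold change was more negative in H1975 were RBBP8NL (-7.73), OVOL1 (-7.63), GABRE, a GABA receptor subunit (-7.21), RSAD2 (-7.14), ARHGEF35 (-6.97) and CDH1 (-4.83). Of the growth and cell cycle genes, SPRY4 differed by -2.67, CCND1 by -2.03, MKI67 by -1.17, CDK1 by -1.16 and TOP2A by -0.78. The short and long washout labels of H1975 may have been exchanged. Against DMSO, MKI67, CDK1 and TOP2A had log2 fold changes of -2.04, -1.99 and -1.61 in long washout but -0.94, -0.83 and -0.64 in short washout. SPRY4 and CCND1 had -4.37 and -2.06 in short washout. The size of the cell cycle differences thus depends on the labels. Of the receptors, AXL differed by -1.90, MET by -0.90 and EGFR by -0.61, and VIM differed by -1.0.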

How the results depend on the processing

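For long washout against DMSO every alternative named in the methods gave between 5880 calls (threshold 0.01) and 8966, with 8364 by DESeq2, 8087 with RLE size factors, 7878 by limma and 6288 with the short washout libraries in place of the long, of which 5616 were shared. Leaving out single libraries gave 6708 to 8966 calls. No list median changed sign between TMM, RLE, library size, DESeq2 and limma in this comparison. Against the other lines, leaving out single libraries gave 3392 to 4615 calls and a threshold of 0.01 gave 2732. With the short washout libraries of H1975 in place of the long there were 3439, of which 2707 were shared. For long washout against DTPs, DESeq2 gave 68 calls, the fit of 60 libraries 6, the fit of 15 libraries 1, limma 0, a threshold of 0.01 0, and leaving out single libraries 0 to 1. For long against short washout, DESeq2 gave 2359, the fit of 15 libraries 541, the fit of 60 libraries 648, a threshold of 0.01 313, and leaving out single libraries 440 to 2076. For long washout minus DTPs against the other lines, where no gene was called, DESeq2 gave 60, the fit of 60 libraries 204 and the short washout libraries 1. Deviations of same-numbered DMSO and long washout libraries had correlations of 0.0074, 0.0156 and 0.0349, against -0.0383 to 0.0078 for pairs with unlike numbers. Whether same-numbered libraries shared a culture or batch was not tested, and the main fit did not pair them. With a replicate block the calls were 7643 against DMSO, 900 between the washouts, 2 against DTPs and 4246 against the other lines. No named gene changed direction under any of these settings. VIM lost its call in 9 alternatives, among them leaving out DMSO replicate 1 (0.41, adjusted p = 0.118), and SLC44A2 against DMSO lost it in 10. PTPRC lost its call in 5, MUC16 in 3, and H3C15, APOBEC3F and CD14 with the short washout libraries. With the short washout libraries 128 of 133 named genes kept both direction and call. Sizes differed both ways, with CDH5 at 1.45 and MUC4 at 1.17 smaller and ROS1 at 3.58 larger than in long washout. ZEB1 was called without DMSO replicate 2 (1.06) and by DESeq2, the block and the fit of 15 libraries, and AXL without DMSO replicate 1 (-0.64). Leaving out 1 library moved further named genes by over 1.5 times, OVOL2 to -8.73 (long washout replicate 2), AREG to -6.30 and ANGPTL4 to -4.75 (long washout replicate 3), MAF to 3.30, SLC34A2 to 4.33 and ITGB6 to -4.56 (DMSO replicate 1), MUC4 to 3.34 (DMSO replicate 2) and COL4A3 to 4.57 (DMSO replicate 3). The causes were not tested. Depth limits genes with few counts, and 3 libraries per group limit all of these tests.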

Other observations

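Gene groups not yet described are listed here for long washout against DMSO (edgeR's quasi-likelihood test). Over all genes 26.8% were higher and 28.2% lower, and nothing is read from list counts near these shares. Of 15 alveolar lineage genes tested 4 were higher and 4 lower. SLC34A2, a phosphate transporter of alveolar cells, rose by 3.07, and FOXA2, a factor of the lung epithelium, had 12.9, 7.14 and 11.8 CPM in DMSO and 0.16, 0.51 and 0.352 CPM in long washout (log2 fold change -5.00 ± 0.41, adjusted p = 4.48e-05), with no overlap between the groups. Of 10 keratins tested 4 were higher and 3 lower. KRT17, a keratin of basal and wounded epithelia, had 15.3, 14.996 and 12.5 CPM in DMSO and 166, 164 and 227 CPM in long washout (log2 fold change 3.65 ± 0.15, adjusted p = 8.19e-06), although 8 annotated pseudogenes carry its name, and KRT81 fell by 3.11 on the log2 scale. Of 6 mucins tested 2 were higher (MUC4, 2.69, and MUC16, 0.72) and 0 lower.

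Of 26 WNT pathway genes tested 10 were higher and 8 lower, with WNT9A at -2.59 and TCF7 at -2.58. Of 13 Notch genes 3 were higher and 4 lower, with HEY1 at -3.11 and JAG2 at -1.29. Of 15 hypoxia genes 5 were higher and 2 lower, with ANGPTL4 at -3.83 and EGLN3 at 1.35. Of 12 aldehyde dehydrogenases 6 were higher and 3 lower, with ALDH3B2 at -4.55 and ALDH4A1 at 1.37. Of 13 ABC transporters 6 were higher and 2 lower, with ABCA5 at 2.68 and ABCC6 at 2.41. Of 5 APOBEC3 deaminases 1 was higher (APOBEC3F, 0.65) and 2 lower, led by APOBEC3B (-1.63), a cytidine deaminase.

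Long washout minus DTPs, compared between H1975 and the mean of the other lines in a test added after seeing the data, gave 0 calls among 16136 genes in edgeR, 2132 genes at an unadjusted p under 0.05, and 60 calls by DESeq2. Fitted alone, the same difference gave 2496 calls among 14424 genes in PC9, 745 among 14429 in HCC2935, 0 among 14053 in HCC827 and 2 among 14702 in H1975. The 25 mitosis genes differed by -1.36 to -0.75 without a call. The 0 calls are thus not read as equal change in the lines.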
